A study of Mus musculus with 16 samples.

Results

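Striatum from R6/2 mice was compared with striatum from wild-type mice across all genes. The comparison used 8 of the 16 arrays of the study: the 4 labelled R6/2 and the 4 labelled Wild Type, chosen by their titles and carrying no DREAM mutation. The other 8 arrays came from DREAM +/- mice, which have 1 disrupted copy of the gene for the calcium-binding repressor DREAM (Kcnip3), and from R6/2 x DREAM +/- mice, 4 of each, and are used below only as a second comparison of the transgene. All 4 genotypes are labelled with strain B6xCBA, and the R6 line came from Jackson laboratories. Total RNA was taken from whole striatum and each sample was put on its own Affymetrix mouse array. The labels name the cell type as striatal neurons, but the sample is bulk tissue: genes of oligodendrocytes (Mal, 12.61 ± 0.07 on the log2 scale, SD, n = 4) and astrocytes (Aldoc, 13.36 ± 0.03) were among those measured in wild type. In such tissue, fewer cells of a type and less RNA per cell cannot be told apart. Age, sex, repeat length and whether a sample pooled several mice are not stated in the labels.

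The striatum is the input station of the basal ganglia. Most of its neurons are medium spiny projection neurons, GABAergic cells that read dopamine and cortical glutamate through cyclic AMP, calcium and kinase cascades and that are the cells most affected in Huntington's disease. The R6/2 mouse carries a fragment of the human huntingtin gene, its first exon with a long CAG repeat, driven by the human promoter of that gene, so the fragment is expressed in many cell types and not in neurons alone. It is an aggressive fragment model and keeps both copies of mouse huntingtin. Mutant huntingtin is known for lowering the transcripts of striatal identity genes, and less is usually said of the remaining transcriptome, which is described here by pathway.

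Deposited values are log2 probe-set levels, and 13011 genes passed a brightness filter of 5.944, set at the 40th percentile. A gene passed the test where its limma p, adjusted for all 13011 genes, was under 0.05. On the first principal component R6/2 arrays scored 12.25 to 15.59 and wild-type arrays -10.93 to -10.35. R6/2 replicate 1 stood apart in sex-linked genes: Xist, transcribed from the inactive X chromosome, read 6.49 there against 11.58 to 11.95 in the other R6/2 arrays. Without this array 2829 genes passed, against 3307 with it. Markers of cortical projection neurons, a neighbouring tissue, also moved with the genotype. Their mean level, less the wild-type mean, was -0.72, -0.44, -0.41 and -0.50 in R6/2 replicates 1 to 4 and -0.09 to 0.09 in wild type. Their part in the results was not tested. Counts left with that mean as a covariate are given beside the results, and so are counts from DREAM +/- mice. In those mice the ranges overlapped (-0.28 to 0.05 with the transgene, -0.05 to 0.14 without), but DREAM dose differs too. The covariate nearly follows the genotype, and it raised the median standard error from 0.0694 to 0.1386 log2 units. Calls can be lost for that reason alone, so neither set of counts measures the part of these markers.

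Of the 13011 genes, 1551 were lower in R6/2 (11.9%) and 1756 higher (13.5%), or 25.4% in either direction. The directions differed in size. Among changes under 1.2-fold 491 genes were lower and 1002 higher, from 1.2 to 1.5-fold 818 and 710, from 1.5 to 2-fold 193 and 42, and at 2-fold or more 49 and 2 (0.377% and 0.0154% of genes tested). Increases were thus many and small, and the large changes were nearly all decreases. The share of passing genes that were higher was 53.1%, and it was 42.4% (1220 higher, 1658 lower) once the arrays were shifted to a common median, which moved the median of all genes from 0.03 to 0.008. With the cortical marker mean as a covariate, 342 genes were lower and 687 higher. The number lower by 2-fold or more was 31 when the probe sets of a gene were averaged instead of taking the brightest.

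**Figure D1:**
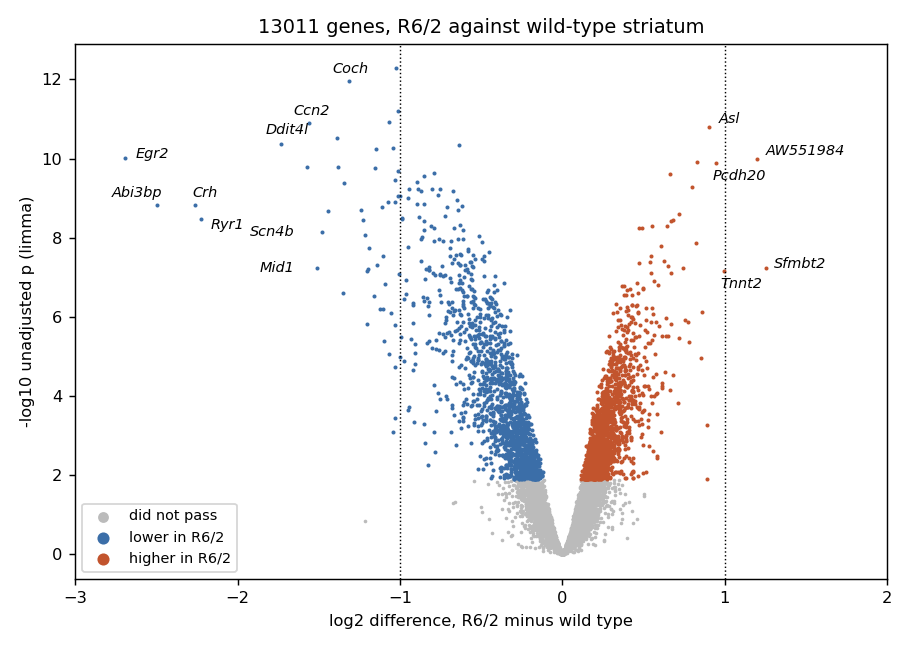
Each point is 1 of the 13011 genes tested. The x axis is the difference between the means of 4 R6/2 and 4 wild-type arrays (log2), the y axis the -log10 of the unadjusted limma p, and colour marks genes with an adjusted p under 0.05. The dotted lines mark a 2-fold difference, which 49 genes pass on the left and 2 on the right.

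**Figure D2:**
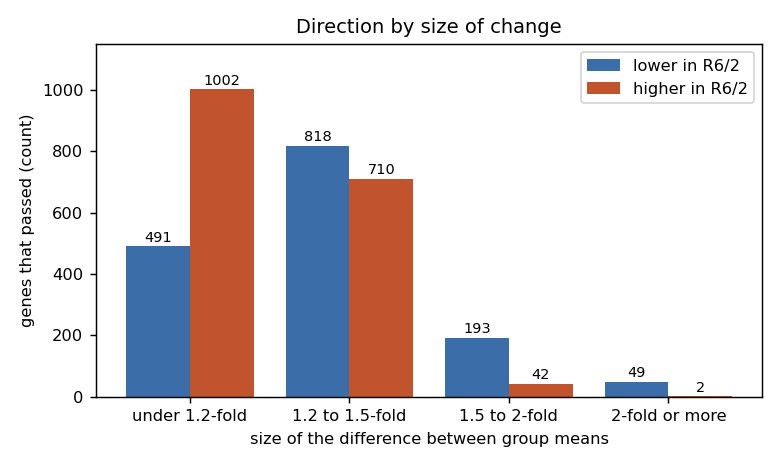
Bars count the genes that passed, by the size of the difference between group means (x axis) and its direction. Genes higher in R6/2 are in the majority only under 1.2-fold (1002 against 491), and at 2-fold or more 49 of 51 were lower.

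The second comparison, R6/2 x DREAM +/- against DREAM +/-, shares no array with the first, although all 16 arrays share 1 estimate of spread. In it 1024 genes were lower (7.87%) and 920 higher (7.07%). R6/2 x DREAM +/- replicate 3 stood apart from its group on the third principal component, at -15.87 against -0.13 to 3.91. All counts given for DREAM +/- mice include this array. Of the 1551 genes lower in R6/2 against wild type, 852 (54.9%) were lower in the second comparison too, which is 83.2% of the genes lower there. Of the 1756 higher genes, 611 (34.8%) were higher there, or 66.4% of that comparison's higher genes. No gene passed in opposite directions. Of the 49 genes lower by 2-fold or more, 43 passed as lower in DREAM +/- mice.

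The 15 largest decreases ran from 15.5% of wild type in Egr2 upwards. Egr2, an immediate early zinc finger factor, read 8.49, 8.72, 8.87 and 7.87 in wild-type replicates 1 to 4 and 6.16, 6.12, 5.48 and 5.43 in R6/2. The R6/2 mean was 15.5% of wild type (log2 difference -2.69, SE 0.195, adjusted p = 1.03e-07). Abi3bp, an extracellular matrix protein, read 7.44, 7.24, 7.24 and 7.05 in wild type and 4.96, 4.72, 5.12 and 4.19 in R6/2, or 17.7% of the wild-type level. Crh, the neuropeptide corticotropin-releasing hormone, read 7.15, 6.80, 7.34 and 6.57 in wild type against 5.04, 4.49, 4.94 and 4.35 (20.9%). Each R6/2 array was below each wild-type array in these genes, which was a condition for being listed here. Over all genes tested, the R6/2 arrays lay wholly below the wild-type arrays in 11.8% and wholly above in 13.4%. The R6/2 means of Egr2, Abi3bp, Crh, Gpx6, Mid1 and the uncharacterised transcript C030013G03Rik lay under the brightness filter. Background sets part of a level there, and the measured fall may be a lower bound.

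Ryr1, an intracellular calcium release channel best known from skeletal muscle, read 8.37, 8.40, 8.17 and 8.45 in wild type and 6.10, 5.89, 6.26 and 6.24 in R6/2 (21.4%, adjusted p = 7.97e-07). Ddit4l, an inhibitor of mTORC1 signalling, read 9.46, 9.57, 9.44 and 9.16 against 7.81, 7.42, 7.90 and 7.58 (30.1%). Scn4b, the sodium channel beta-4 subunit of striatal projection neurons, read 12.67, 12.63, 12.78 and 12.77 against 11.42, 10.95, 11.16 and 11.39 (35.8%). In DREAM +/- mice these 3 genes fell by 1.95, 1.52 and 1.27 on the log2 scale. Coch, the matrix protein cochlin, had the smallest adjusted p among the 15 largest decreases (7.3e-09). Its arrays read 10.42, 10.39, 10.29 and 10.20 in wild type and 9.07, 8.93, 9.09 and 8.95 in R6/2. Ccn2, a secreted matricellular protein that is also on the cortical marker list, read 9.09, 9.30, 9.10 and 9.21 against 7.46, 7.73, 7.58 and 7.70. It fell by 1.56 here and by 0.88 in DREAM +/- mice, and its R6/2 values were as tight as its wild-type ones (SD 0.12 and 0.10).

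Gpx6, of the glutathione peroxidase family, fell by 1.57 on the log2 scale, and the secreted protein Dmkn fell by 1.44. C030013G03Rik fell by 1.39, the atrial myosin light chain Myl4 by 1.35 and the dual-specificity phosphatase Dusp14 by 1.35. With the cortical covariate Myl4 was -0.22 and did not pass (adjusted p = 0.382). Clspn, an adaptor of the replication checkpoint, fell by 1.38 on its brightest probe set, but only 1 of its 2 probe sets had that sign. Mid1, a microtubule-binding ubiquitin ligase, was the exception among the 15 in DREAM +/- mice. It read 7.30, 7.07, 7.42 and 7.69 in wild type and 5.87, 5.73, 5.70 and 6.13 in R6/2, with all 3 probe sets lower, yet its difference within DREAM +/- mice was 0.00. The difference between these 2 effects was -1.51 with an adjusted p of 0.0578 (limma interaction), so it did not pass.

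**Figure D3:**
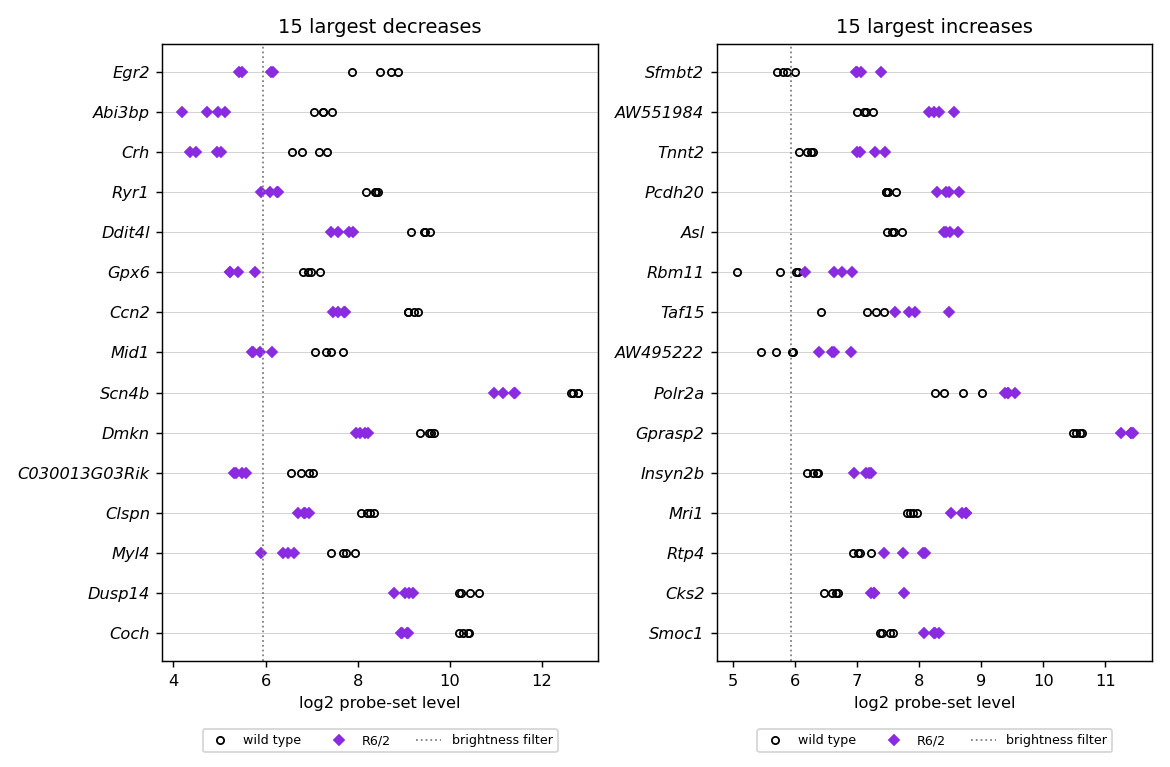
Log2 probe-set levels (x axis) of the 15 genes with the largest decrease (left) and the 15 with the largest increase (right) of the genes that passed and whose 4 R6/2 arrays all lay on 1 side of the 4 wild-type arrays. Circles are the 4 wild-type arrays, diamonds the 4 R6/2 arrays and the dotted line the brightness filter at 5.944. Differences run from -2.69 to -1.32 log2 units on the left and from 0.76 to 1.26 on the right, and several decreases end left of the filter.

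The largest increases were smaller and came from unrelated gene classes. Sfmbt2, a Polycomb group protein, read 5.72, 5.87, 5.81 and 6.01 in wild type, under or near the filter, and 7.0, 7.39, 6.98 and 7.06 in R6/2 (238.7% of wild type). AW551984, an expressed sequence of no assigned role here, read 7.26, 7.0, 7.14 and 7.11 against 8.33, 8.25, 8.57 and 8.16 (229.7%). It rose by 1.2 here and by 0.52 in DREAM +/- mice, and the difference between these effects did not pass (adjusted p = 0.121). Tnnt2, cardiac troponin T, read 6.29, 6.27, 6.07 and 6.19 against 7.01, 7.45, 7.29 and 7.05, with 2 of 3 probe sets higher. Pcdh20, a protocadherin, read 7.50, 7.63, 7.47 and 7.47 against 8.49, 8.64, 8.43 and 8.29. Asl, the urea cycle enzyme argininosuccinate lyase, read 7.60, 7.72, 7.56 and 7.48 against 8.44, 8.63, 8.50 and 8.41 (187.3%, adjusted p = 3.42e-08). That no array of one group reached the range of the other was again a condition for being listed. All 5 genes passed in DREAM +/- mice.

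Polr2a, the largest subunit of RNA polymerase II, rose by 0.85, from 8.40, 8.71, 8.26 and 9.01 to 9.38, 9.54, 9.43 and 9.44. Its spread was wide in wild type (SD 0.33) and narrow in R6/2 (SD 0.07). The sorting protein gene Gprasp2 rose by 0.83, the inhibitory synapse factor Insyn2b by 0.83 and the methionine salvage enzyme Mri1 by 0.80. Cks2, a small subunit of cyclin-dependent kinases, rose by 0.77 and Smoc1, a secreted calcium-binding matrix protein, by 0.76. Expressed sequence AW495222 and the RNA-binding gene Rbm11 rose by 0.86 and 0.89 from wild-type levels under the filter, and Rbm11 did not pass in DREAM +/- mice (0.43, adjusted p = 0.195). Taf15, an RNA-binding protein, was at the edge of the test (0.89, adjusted p = 0.0499). It did not pass in 6 of the 8 fits that left out 1 array, at 0.67 to 0.96, nor in DREAM +/- mice (0.19).

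Since Egr2 led the decreases, promoters were searched for the letters its family binds, GCGTGGGCG or GCGGGGGCG on either strand, in the 250 bases before the first RefSeq start of 10482 tested genes. They were present in 8.21% of genes that fell (99 of 1206), 5.33% of genes that rose (76 of 1427) and 5.96% of all tested. Among changes of at least 1.5-fold, they were present in 7.39% of genes that fell (13 of 176) and in 0 of 37 that rose. Several starts are listed for 2174 of the 10482 genes, and the others were not searched. The palindromes TGACGTCA, bound by CREB, and CACGTG, bound by clock and MYC factors, were present in 2.65% and 7.71% of genes that fell and in 2.66% and 8.44% of all tested. A match is a run of letters and no measurement of binding. Of the 17 immediate early genes with a promoter in the table, 4 held the EGR letters, and windows of a pair of them are shown because their levels are described next; both were chosen after their values were seen. Capitals mark the EGR letters, 79 bases before the start in Fosl2 (build GRCm38.p6, chr5:32136222-32136471, plus strand) and, on the opposite strand, 60 bases before it in Nr4a1 (chr15:101266596-101266845, plus strand), both from RefSeq.
Fosl2: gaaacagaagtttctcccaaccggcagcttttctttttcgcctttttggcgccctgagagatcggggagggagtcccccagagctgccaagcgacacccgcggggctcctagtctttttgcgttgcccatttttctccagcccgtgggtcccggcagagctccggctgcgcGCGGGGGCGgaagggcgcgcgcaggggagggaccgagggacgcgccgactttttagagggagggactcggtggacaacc
Nr4a1: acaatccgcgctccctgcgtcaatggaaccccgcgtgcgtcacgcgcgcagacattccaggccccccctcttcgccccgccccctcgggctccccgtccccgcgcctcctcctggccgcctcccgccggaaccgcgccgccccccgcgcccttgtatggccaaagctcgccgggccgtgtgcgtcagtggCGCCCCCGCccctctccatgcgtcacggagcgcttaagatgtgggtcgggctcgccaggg

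Fosl2, a partner of Jun in the AP-1 factor, read 8.70, 8.81, 8.93 and 8.56 in wild type and 8.08, 7.98, 7.47 and 7.08 in R6/2. Nr4a1, an orphan nuclear receptor induced by activity, read 10.87, 11.18, 11.18 and 10.67 against 10.61, 10.51, 9.29 and 9.36. The groups did not overlap in either gene, but the R6/2 arrays spread. In Nr4a1 replicates 1 and 2 lay near wild type and replicates 3 and 4 well below, and in Fosl2 all 4 lay below, replicates 3 and 4 farthest. Both fell (by 1.10 and 1.03 on the log2 scale), and neither passed in DREAM +/- mice (-0.21 and -0.40) or with the covariate (-1.13 and -1.35, adjusted p = 0.0601 and 0.0978). Immediate early genes as a list had 17 of 22 members lower and 0 higher (median -0.72), and 10 were lower in DREAM +/- mice and 9 with the covariate. Without the transgene, the DREAM +/- arrays lay at -0.48 to -0.32 against wild type in the mean of this list.

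Genes that carry signals from dopamine and glutamate receptors into the cell were lower across several lists. Counts of each list are read against the 11.9% lower and 13.5% higher of all genes. Those in DREAM +/- mice are read against 7.87% lower and 7.07% higher. Those with the cortical covariate are read against only 342 lower and 687 higher of all 13011 genes. Genes named below with a small change can rest on 1 array: 21 of them, none over 0.363 in size, did not pass in at least 1 of the 8 fits that left out an array. These are Prkar1b, Pip5k1b, Scn2a, Sv2b, Rab3c, Napa, Rps27, Slitrk5, Esrrg, Pfkfb2, Edem1, Pcgf5, H1f2, Dlx2, Pax6, Srsf10, Lig1, Mlh3, Casp9, C1qc and Rarres2. With the probe sets of a gene averaged, 17 kept their sign but did not pass: Pde4d, Kcnq5, Cacng8, Scn1a, Scn2a, Rab3c, Tubb2a, Nrp1, Pfkfb2, Psme4, Edem1, Asns, Sqstm1, Pcgf5, Bap1, H1f2 and Atxn1. With the cortical covariate 89 of the 199 genes named in all kept their sign but lost their call, and counts with it stand beside most lists. RGS proteins switch off G proteins: 10 of 16 were lower and 0 higher (median -0.34), with 7 lower in DREAM +/- mice. Rgs4, the member of this family that acts on Gq and Gi in many forebrain neurons, read 12.81, 12.92, 13.02 and 12.99 in wild type and 12.06, 11.80, 11.91 and 11.91 in R6/2 (49.5%). Rgs14 fell by 1.01 and Rgs9, the striatal RGS protein, by 0.82, while its obligate partner Gnb5 fell by 0.45. With the cortical marker covariate 3 RGS genes were lower.

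Cyclic nucleotide genes were mixed, 13 of 35 lower and 4 higher (median -0.12; 14 lower in DREAM +/- mice). Adcy5, the main adenylyl cyclase of the striatum, fell by 0.91 on the log2 scale and the cyclic AMP phosphodiesterase Pde7b by 0.59. The 4 that rose were Pde4d (0.26 on 1 of 2 probe sets, 0.09 with both averaged), the kinase A regulatory subunits Prkar1b (0.22) and Prkar2a (0.30), and the kinase A inhibitor Pkia (0.31). ERK pathway genes were lower in 12 of 22 and higher in 0 (median -0.30; 8 lower in DREAM +/- mice). They held an activator and inhibitors alike: Rasgrp2, a calcium-regulated Rap and Ras exchange factor, fell by 1.07, the ERK phosphatase Dusp6 by 0.84 and the nuclear kinase Rps6ka5 (MSK1) by 0.79. Protein kinase C and phosphoinositide genes were lower in 8 of 26 and higher in 2. Prkcb, a classical protein kinase C, and Plcb1, the phospholipase C below Gq-coupled receptors, each fell by 0.48, while diacylglycerol kinase epsilon (Dgke) rose by 0.48 and the lipid kinase Pip5k1b by 0.24. With the covariate 4 cyclic nucleotide genes, 7 ERK pathway genes and 2 of the kinase C list were lower, and 2, 1 and 0 were higher.

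Potassium channels set the resting potential and firing of projection neurons, and 21 of 41 were lower with 0 higher (median -0.25; 17 lower in DREAM +/- mice). Kcnab1, an auxiliary subunit of Kv1 channels, read 12.71, 12.58, 12.64 and 12.63 in wild type and 12.11, 12.03, 11.92 and 12.03 in R6/2 (65.2%). The 2-pore channel Kcnk2 (TREK-1) fell by 0.56, as did the M-current subunit Kcnq5, whose call was lost when its 3 probe sets were averaged (adjusted p = 0.0836). Voltage-gated calcium channel genes were lower in 7 of 19 and higher in 1, with the alpha-2-delta subunit Cacna2d3 down by 0.63 and Cacng8, an AMPA receptor auxiliary subunit on that list, up by 0.46 (1 of 2 probe sets). Sodium and HCN channel genes were lower in 3 of 13, namely Scn4b, Scn1a (-0.34) and Scn2a (-0.18), and higher in 1, Hcn3 (0.20). Scn2a had 2 of 4 probe sets of that sign, and neither it (-0.05) nor Scn1a (-0.24) passed with averaged probe sets. With the covariate 7 potassium, 2 calcium and 1 of the sodium and HCN channel genes were lower, and 2 calcium channel genes were higher.

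Of 31 genes for calcium stores, pumps and calmodulin-dependent kinases, 21 were lower and 0 higher (median -0.31), and 17 were lower and 1 higher in DREAM +/- mice. Besides Ryr1, Camk1g, a calmodulin-dependent kinase, read 9.10, 9.24, 9.14 and 9.15 in wild type and 8.48, 8.41, 8.35 and 8.38 in R6/2 (59.4%). Camkk2, the kinase that activates it, fell by 0.80 with all 4 probe sets lower. With the covariate 6 genes of this list were lower, and its median was -0.15.

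**Figure D4:**
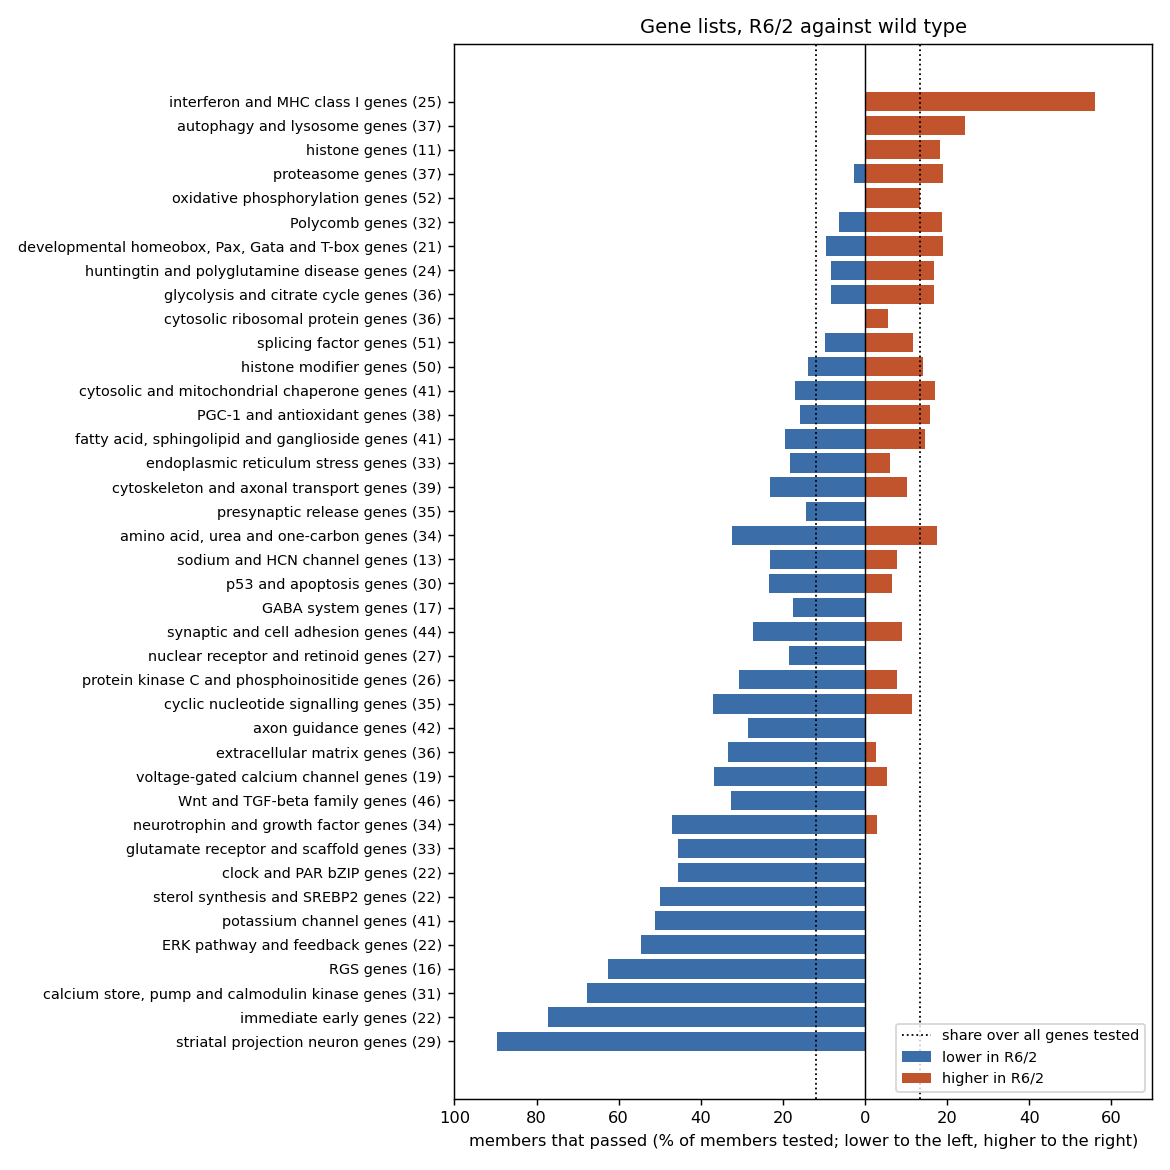
Share of tested members (x axis, %) that passed as lower (left) or higher (right) in R6/2 for each gene list with at least 10 tested members, cell type marker lists aside; the number tested is in brackets. Dotted lines mark the shares over all genes, 11.9% lower and 13.5% higher. Signalling, channel and growth factor lists reach left, and interferon and MHC class I genes reach farthest right.

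On the postsynaptic side, 15 of 33 glutamate receptor and scaffold genes were lower and 0 higher (median -0.17; 11 lower in DREAM +/- mice). With the covariate 5 were lower and 1 higher and the median was -0.03. Neto2, an auxiliary subunit of kainate receptors, read 10.30, 10.47, 10.43 and 10.45 in wild type and 9.53, 9.50, 9.62 and 9.45 in R6/2 (54.1%). Its relative Neto1 fell by 0.46. The scaffold genes Homer1 and Shank3 fell by 0.64 each, Homer1 on all 6 of its probe sets, and Shank3 did not pass with the covariate (-0.35, adjusted p = 0.264). GABA system genes were lower in 3 of 17 and higher in 0. Gabrd, the delta subunit of extrasynaptic GABA-A receptors, read 10.55, 10.65, 10.61 and 10.72 against 9.76, 9.55, 9.59 and 9.82 (51.7%), and the alpha subunits Gabra4 and Gabra2 fell by 0.31 and 0.46 (3 of 5 Gabra2 probe sets had that sign). With the covariate 2 GABA system genes were lower, and Gabra2 did not pass (-0.59, adjusted p = 0.0717).

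The machinery of transmitter release was near background in its decreases: 5 of 35 genes were lower (14.3%) and 0 higher (median -0.07). When 1 array was left out 2 to 6 were lower (2 without replicate 1 or 3 of R6/2 or 1 or 2 of wild type). In DREAM +/- mice 2 were lower and 3 higher. Unc13a, which primes vesicles for release, fell by 0.51 and the active zone scaffold Bsn by 0.50. The other 3 were Sv2b (-0.26), Rab3c (-0.16) and Napa (-0.15). Cytosolic ribosomal protein genes had 2 of 36 higher, Rps27 (0.16) and Rpl7a (0.19), and 0 lower (median 0.07). In 8 of the 36 the R6/2 arrays lay wholly above the wild-type arrays, against 13.4% of all genes. Cytoskeleton and axonal transport genes were lower in 9 of 39 and higher in 4 (7 higher without wild-type replicate 4). The higher 4 were the growth-associated genes Stmn2 (0.39), Gap43 (0.28) and Marcks (0.24) and the tubulin Tubb2a (0.22 on 1 of 2 probe sets, 0.10 with both averaged). With the covariate 1 cytoskeleton gene was lower and 3 higher, and 0 release genes were lower and 3 higher.

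Cell surface and matrix genes moved in part. Of 44 adhesion genes 12 were lower and 4 higher, and 9 were lower and 6 higher with the cortical covariate. Cdh9, a cadherin, fell by 0.74 and the postsynaptic adhesion protein Lrrtm1 by 0.69, while the protocadherins Pcdh20 and Pcdh19 (0.68), the contactin Cntn6 (0.58) and Slitrk5 (0.24) rose. Axon guidance genes were lower in 12 of 42 and higher in 0, but in 7 without R6/2 replicate 4 and in 6 in DREAM +/- mice. With the covariate 2 were lower and 1 higher, and the list median was 0.06 against -0.10. Sema7a, a membrane-anchored semaphorin, fell by 0.67, and the semaphorin co-receptor Nrp1 by 0.41 with -0.06 in DREAM +/- mice (adjusted p = 0.721). Matrix genes were lower in 12 of 36, among them Abi3bp, the collagen Col19a1 (-0.65) and the procollagen protease Adamts3 (-0.68, 1 of 2 probe sets). The protease inhibitor Timp2 (0.42) was higher. With the covariate 3 matrix genes were lower and 1 higher.

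Of 34 neurotrophin and growth factor genes 16 were lower and 1 higher (median -0.19; 10 lower in DREAM +/- mice, 3 with the covariate). Gfra2, the neurturin receptor, fell by 1.16, to 44.8% of wild type. It was -0.47 in DREAM +/- mice, and -0.22 with the covariate, where it did not pass (adjusted p = 0.39). The neurotrophin receptors Ntrk2 and Ntrk3 fell by 0.36 and 0.35. The binding proteins of insulin-like growth factors Igfbp4 and Igfbp5 fell by 0.76 and 0.59, and Gfra4, a receptor for persephin, rose by 0.34. Wnt and TGF-beta family genes were lower in 15 of 46 and higher in 0 (median -0.12). In DREAM +/- mice 8 were lower (median -0.03), and with the covariate 4 were lower and 2 higher. The activin-type receptors Acvr1c (ALK7) and Acvr1 (ALK2) fell by 0.97 and 0.62, and Id2, a target of BMP signalling, by 0.55.

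Retinoic acid signalling is a known feature of the striatum, and 5 of 27 nuclear receptor and retinoid genes were lower and 0 higher (4 lower with the covariate). Rbp4, the retinol carrier, read 9.41, 9.41, 9.27 and 9.45 in wild type and 8.51, 8.46, 8.12 and 8.32 in R6/2. Aldh1a1, which makes retinoic acid, fell by 0.63. The receptors Rxrg and Rarb, both expressed in projection neurons, fell by 0.64 and 0.48, and the orphan receptor Esrrg by 0.25 (0.04 when its probe sets were averaged).

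In metabolism, sterol synthesis genes were lower in 11 of 22 and higher in 0 (median -0.20), and 13 were lower in DREAM +/- mice. Msmo1, a sterol methyl oxidase, read 10.67, 10.49, 10.62 and 10.59 in wild type and 9.97, 9.92, 10 and 9.88 in R6/2 (63.7%). Idi1 and Cyp51, enzymes before and after squalene, fell by 0.61 each. Squalene synthase, Fdft1, fell by 0.56 on its brightest probe set, with 2 of 4 sets in that direction. With the covariate 3 sterol genes were lower. Other lipid genes went both ways, 8 of 41 lower and 6 higher (2 higher after a common median). The sialyltransferase St8sia3 fell by 0.85, Ugt8a, which makes the galactolipids of myelin, by 0.60, and Srebf1, the factor of fatty acid synthesis, rose by 0.40. With the covariate 3 of these were lower and 1 higher.

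Amino acid, urea and one-carbon genes split, with 11 of 34 lower and 6 higher. The urea cycle enzymes went in opposite directions: Asl rose, and Arg2, the mitochondrial arginase downstream of it, read 8.64, 8.54, 8.62 and 8.56 in wild type and 7.67, 7.06, 7.39 and 7.76 in R6/2 (46.0%). Srm, spermidine synthase, fell by 0.43, the creatine synthesis enzyme Gamt by 0.45, and the mitochondrial serine enzyme Shmt2 rose by 0.39. With the covariate 1 gene of this list was lower and 2 higher.

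Energy metabolism moved little. Oxidative phosphorylation genes had a median of 0.07, with 7 of 52 higher (13.5%) and 0 lower, against 13.5% and 11.9% of all genes. In 15 of the 52 the R6/2 arrays lay wholly above the wild-type arrays, against 13.4% of all genes, and in 0 wholly below. After a common median 4 were higher. Cyc1, cytochrome c1, rose by 0.25. Glycolysis and citrate cycle genes were higher in 6 of 36 and lower in 3, with 2 higher after a common median and 2 to 5 when 1 array was left out. Pdk1, which inhibits pyruvate dehydrogenase, rose by 0.39 and the astrocytic aldolase Aldoc and the glycolysis regulators Pfkfb3 and Pfkfb2 fell by 0.26, 0.37 and 0.25. Among PGC-1 and antioxidant genes 6 of 38 were lower and 6 higher (3 lower without wild-type replicate 1), Ppargc1b by 0.33 and the metallothionein Mt2 by 0.36 in the first direction and the peroxiredoxin Prdx4 by 0.37 in the other. With the covariate 0 genes of these 3 lists were lower, and 0, 3 and 2 were higher.

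Among protein quality control genes, 21.6% of 37 proteasome and 34.1% of 41 chaperone genes passed in either direction, against 25.4% of all genes tested. The other 29 proteasome and 27 chaperone genes did not pass. Proteasome genes were higher in 7 of 37 and lower in 1, with 3 higher after a common median and 3 to 6 when 1 array was left out (3 without R6/2 replicate 2 or 4). The largest member was Psme1, a subunit of the interferon-inducible proteasome activator PA28, at 9.41, 9.38, 9.21 and 9.39 in wild type and 10, 10.14, 9.97 and 10.01 in R6/2 (160.5%). Psmb10, an immunoproteasome subunit, rose by 0.34, and Psmd1, of the standard regulatory particle, by 0.22, while the activator Psme4 fell by 0.23. Chaperone genes ran from -0.78 to 0.28, with 7 higher and 7 lower, the latter 3 without R6/2 replicate 3 or wild-type replicate 3. Stip1, the adaptor between HSP70 and HSP90, and the chaperonin subunit Cct4 rose by 0.28 and 0.18, and the HSP40 family gene Dnajb5 fell by 0.56. In DREAM +/- mice 10 chaperone genes were higher and 0 lower. With the covariate 1 chaperone gene was higher and 0 lower, and 3 proteasome genes were higher and 0 lower.

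Endoplasmic reticulum stress genes were lower in 6 of 33 and higher in 2 (1 and 1 in DREAM +/- mice). With the covariate 0 passed in either direction. Atf6, a sensor of that stress, fell by 0.51 and Sdf2l1, a chaperone partner it induces, by 0.50. The 2 that rose were Edem1 (0.18) and asparagine synthetase, Asns (0.18). The wild-type array of replicate 3 read 8.16 for Sdf2l1 and the others 7.38 to 7.51. Autophagy and lysosome genes were higher in 9 of 37 and lower in 0 (median 0.07), but in 3 without R6/2 replicate 3, in 4 without wild-type replicate 1 and in 5 without R6/2 replicate 2 or after a common median. Gaa, acid glucosidase, rose by 0.34, cathepsin S (Ctss), mostly microglial, by 0.30 and the autophagy receptor Sqstm1 by 0.22, which did not pass when its probe sets were averaged (adjusted p = 0.055). With the covariate 3 genes of this list were higher.

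Clock genes were lower in 10 of 22 and higher in 0 (median -0.18), with 7 lower in DREAM +/- mice and 7 with the cortical covariate, where the median was -0.26. Npas2, the forebrain partner of Bmal1, fell by 0.88, to 54.3% of wild type. The PAR bZIP output factors Dbp and Hlf fell by 0.78 and 0.72.

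Among chromatin genes, histone modifiers were lower in 7 of 50 and higher in 7 (2 higher after a common median). Kdm3a, a histone H3 lysine 9 demethylase, fell by 0.58 and the DNA methyltransferase Dnmt3a by 0.45, while the deacetylase Hdac1 rose by 0.33. Polycomb genes, which keep developmental genes silent, were higher in 6 of 32 and lower in 2, with 3 higher without R6/2 replicate 1 or 3 and after a common median. Besides Sfmbt2, Bmi1 rose by 0.34 and Phf1 by 0.29, and Pcgf5 and the deubiquitinase Bap1 fell by 0.27 and 0.19. Among 11 histone genes Macroh2a1 (0.35) and H1f2 (0.15) were higher and 0 lower. Developmental homeobox, Pax, Gata and T-box genes were higher in 4 of 21 (2 without R6/2 replicate 1, 2 or 4) and lower in 2. Onecut2 rose by 0.65, to 157.2%, followed by Isl1 (0.29), Dlx2 (0.22) and Pax6 (0.19). Lhx2 fell by 0.36, and Tbr1, also a cortical marker, fell by 0.64 but read 0.38 with the covariate. With it 1 histone modifier was lower and 2 higher, 0 Polycomb genes were lower and 2 higher, and 1 developmental factor was lower and 1 higher.

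Splicing factor genes went both ways at about the background share, 6 of 51 higher and 5 lower. Rbfox1, a neuronal splicing regulator, fell by 0.32, with all 4 probe sets lower, and Celf1 fell by 0.30 on 5 of 5. Khdrbs3 (-0.30), Qk (-0.23) and Srsf10 (-0.15, but 0.05 when its probe sets were averaged) were also lower. Nova1, another neuronal regulator, rose by 0.40 and Srsf6, an SR protein, by 0.35. With the covariate 2 were lower and 2 higher.

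Interferon and MHC class I genes formed the only list of the 50 with over 50% of its tested members higher: 14 of 25 rose and 0 fell (median 0.31), and 12 were higher in DREAM +/- mice. Ifit3, an antiviral protein induced by interferon, read 7.68, 7.74, 7.67 and 7.67 in wild type and 7.96, 8.44, 8.57 and 8.34 in R6/2 (155.6%). R6/2 replicate 1 was the lowest of its group in Ifit3, B2m, Xaf1 and Rtp4, an interferon-induced chaperone of receptors that read 7.02, 7.22, 6.94 and 7.05 in wild type and 7.44, 8.07, 8.10 and 7.74 in R6/2. The MHC class I light chain B2m rose by 0.44, Ifi27 by 0.48 and Xaf1 by 0.38. The count was 17 without R6/2 replicate 1, 9 without replicate 3, 8 with a 60th percentile filter, which tests fewer genes, and 7 with the cortical covariate, where the median was 0.44.

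Among p53 and apoptosis genes 7 of 30 were lower and 2 higher (3 and 1 with the covariate). Hrk, a BH3-only activator of cell death, fell by 1.2, to 43.6% of wild type, and the survival gene Bcl2 by 0.38, while Bid, another BH3-only gene, rose by 0.46 and the initiator caspase Casp9 by 0.36. Huntingtin and polyglutamine disease genes were higher in 4 of 24 and lower in 2 (3 and 2 with the covariate). Mouse Htt read 8.30 ± 0.05 in wild type and 8.33 ± 0.05 in R6/2 (SD, n = 4; adjusted p = 0.696). The huntingtin partner Hap1 rose by 0.35, and 3 DNA repair genes rose with it, Lig1 (0.27), Pms1 (0.24) and Mlh3 (0.23). The wild-type mean of Pms1 (5.92) lay under the brightness filter, and its R6/2 and wild-type arrays overlapped. Gadd45g fell by 0.56 and the ataxin gene Atxn1 by 0.36, the latter not passing when its probe sets were averaged (adjusted p = 0.279). Among reference genes, Actb (0.15), Hprt (0.14, adjusted p = 0.0516) and Tbp (-0.05) did not pass. Kcnip3, the gene of DREAM, fell by 0.56, to 68.1% of wild type. Within DREAM +/- mice it did not pass (-0.21, adjusted p = 0.138). These mice have 1 disrupted copy of this gene, and their mean without the transgene was 7.77 against 9.67 in wild type. Nor did Kcnip3 pass with the covariate (-0.43, adjusted p = 0.179).

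Of 29 genes that mark striatal projection neurons 26 were lower (median -0.74; 26 in DREAM +/- mice, 15 with the covariate). Their mean ran from -0.77 to -0.59 over the R6/2 arrays and from -0.04 to 0.05 in wild type. Besides Scn4b, Cnr1, the cannabinoid receptor, and Lrrc10b fell by 1.15 each and Arpp19, a phosphatase inhibitor regulated by cyclic AMP, fell by 1.01. Interneuron markers were lower in 10 of 19 (13 in DREAM +/- mice, 3 with the covariate), and their list mean was -0.50 to -0.36 in R6/2. Apart from Crh, Vip fell by 1.07, Kit by 0.49 and Cck, also made by cortical cells, by 0.75. With the covariate they were -0.16 (adjusted p = 0.754), -0.44 (adjusted p = 0.0997) and 0.21.

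Cortical projection neuron markers were lower in 9 of 14, with Nptx1 at -1.05 and Fezf2 at -0.49, against 4 of 14 in DREAM +/- mice. With their own mean as the covariate 1 was lower, and Nptx1 (-0.13) and Fezf2 (-0.27) did not pass. Astrocyte markers were lower in 10 of 20 and higher in 1. With the covariate 3 astrocyte and 2 oligodendrocyte markers were lower. Agt, angiotensinogen, fell by 0.58 and S100b, a calcium-binding protein of astrocytes, rose by 0.43. Oligodendrocyte markers were lower in 6 of 17, with the myelin gene Mal down by 0.50. Microglia markers were lower in 2 of 19, Cd68 (-0.31) and C1qc (-0.21), and higher in 1, which was Ctss. Endothelial and pericyte markers were lower in 1 of 18 (Tagln, -0.38), and both tested blood markers did not pass. Oligodendrocyte precursor markers were lower in 1 of 12, Vcan (-0.38, with only 3 of 8 probe sets of that sign). Pallidal, septal and thalamic markers were lower in 4 of 13, Penk (-0.90), Crym (-0.60), Syt9 (-0.50) and Npas1 (-0.36), with 2 lower under the covariate; Penk and Crym are also expressed by striatal neurons. Choroid plexus and ependymal markers were lower in 1 of 15 (Rarres2, -0.24), but their mean varied more between arrays than that of any other list, down to -0.95 in R6/2 replicate 4.

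**Figure D5:**
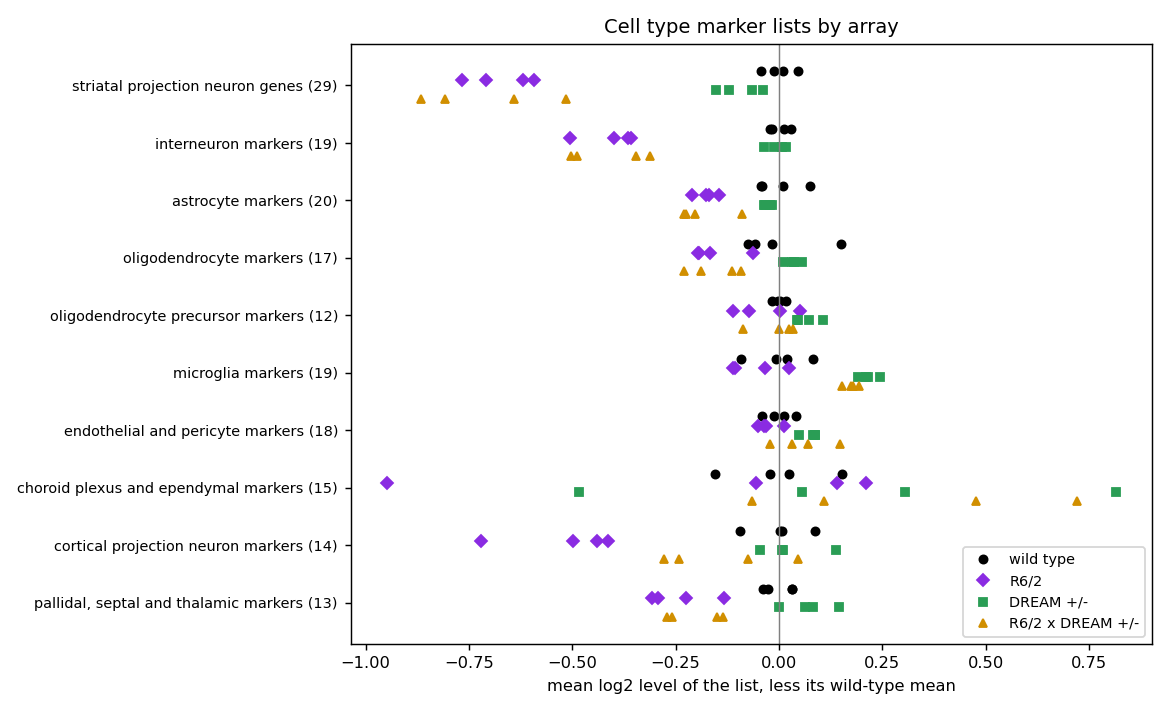
Mean log2 level of each cell type marker list on each of the 16 arrays, less the wild-type mean of that list (x axis), by genotype; the number of genes is in brackets. Striatal projection neuron genes sit at -0.77 to -0.59 in R6/2. Cortical markers sit at -0.72 to -0.41 in R6/2 and at -0.28 to 0.05 in R6/2 x DREAM +/-, and choroid plexus markers scatter in all groups but wild type.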

How the data were processed

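Whole-striatum total RNA was hybridised to 16 one-colour Affymetrix arrays, 4 per genotype, per the labels. The authors deposited log2 probe-set values (3.34 to 14.71); the submitters' processing notes name affy and RMA, with no version and no role. Such normalization removes a shift shared by most genes. Groups and replicate numbers came from sample titles. The labels call the samples biological replicates, but the number of mice per sample is not given, so p-values measure the spread between these samples. The number of arrays limits the precision: the median gene SD was 0.0976 in wild type and 0.0816 in R6/2, and replicates correlated at 0.9903 to 0.998.

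Of 45101 probe sets, 34945 had 1 symbol in the platform annotation, 932 several, 9160 none and 64 were controls. Each of 18193 genes was read from its brightest probe set, and 13011 above the 40th percentile were tested with limma 3.58.1 (R 4.3.3, lmFit and eBayes), with 1 mean per genotype over all 16 arrays and Benjamini-Hochberg adjustment. On simulated data for this comparison (13011 genes, 50 changed at each size) the step recovered 22% of changes of 0.2 log2, 56% of 0.3, 84% of 0.5 and 100% of 1. It made 5 false calls of 136. Noise there was drawn separately for each gene, and far fewer genes passed than the 3307 of the real data. These rates may not carry over.

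The 50 gene lists (1378 tested genes) and the members were chosen with earlier results of these data known, and lists are described by counts and medians with no set test. Named were the 15 largest changes each way where the groups' arrays did not overlap, at most 5 genes of each list by p, members of counts of 5 or fewer and fixed reference genes; Fosl2 and Nr4a1 were chosen after their values were seen. Alternatives changed the arrays fitted, filter, probe set choice, normalization, variance model and covariates. The cortical covariate and the fit without 2 arrays that stand apart were chosen after seeing the data. These arrays are R6/2 replicate 1 and R6/2 x DREAM +/- replicate 3.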

Additional observations from a re-analysis of the deposited data

Results flagged for a closer look

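In groups of 4 arrays, 20 of 398 (5.0%) held 1 array far from the other 3 relative to the group's range, and chance alone gives about 1 in 20. In R6/2 replicate 1, Xist read 6.49 (others 11.58 to 11.95) and Atxn1 10.41 (10.46 to 10.47). R6/2 replicate 2 was the distant array most often. It read 7.76 for Cks2 (others 7.23 to 7.27), 8.55 for Cntn6 (8.35 to 8.38), 8.99 for Igfbp5 (9.32 to 9.35), 7.68 for Gamt (7.97 to 8.0) and 9.50 for Hap1 (9.32 to 9.34). It also read 8.02 for Rps27 (7.90 to 7.92) and 11.29 for Scn2a (11.08 to 11.11). In R6/2 replicate 3, Pfkfb2 read 8.19 (8.07 to 8.08) and Srsf10 9.61 (9.45 to 9.47). In R6/2 replicate 4, Gprasp2 read 11.25 (11.42 to 11.44), Kcnk2 10.56 (10.69 to 10.71) and Pcgf5 7.67 (8.03 to 8.08).

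Among wild-type arrays, replicate 2 read 10.60 for Sema7a (others 10.51 to 10.52), 7.74 for Ifit3 (7.67 to 7.68) and 11.27 for Scn2a (11.33 to 11.34). Replicate 3 read 9.21 for Psme1 (9.38 to 9.41) and 8.16 for Sdf2l1 (7.38 to 7.51), and replicate 4 read 10.12 for Fdft1 (10.35 to 10.36). No difference of the R6/2 effect between wild-type and DREAM +/- mice passed (limma interaction, 0 of 13011 genes adjusted, 898 at an unadjusted p under 0.05).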

How the results depend on the processing

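The count of 3307 changed genes moved by over 1.5 times in 1 alternative, the cortical marker mean as a covariate: 1029 genes, 342 lower and 687 higher. Leaving out 1 array gave 2692 to 3151 genes, 1314 to 1503 lower and 1340 to 1648 higher. With the replicate number as a block, 3339 genes passed (1781 higher, 1558 lower). Deviations of same-numbered wild-type and R6/2 arrays correlated at 0.131, 0.005, 0.17 and 0.149. Arrays of unlike number were not compared, so whether the numbers pair the arrays was not tested. Over 199 named genes and the alternatives with 1 value per gene, 3654 of 3953 values kept direction and side of the threshold. A gene that an alternative filtered out has no value there. Another 275 lost and 6 gained their call with the sign kept, and 18 changed sign. In 93 genes direction and side of the threshold held in each of these alternatives that tested the gene. With the sign kept, calls were lost by 89 genes with the cortical covariate, by 17 with averaged probe sets and by 7 with the block. The 18 values that changed sign are not in these counts of lost calls and did not pass either.

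The values of changed sign follow, in log2 units; the cause was not tested. With the cortical covariate they were 2.493 for Xist, 0.098 for Bsn, 0.234 for Sv2b, 0.014 for Napa, 0.382 for Tbr1, 0.09 for Khdrbs3, -0.169 for Casp9, -0.293 for Actb, 0.212 for Cck and 0.14 for C1qc. With averaged probe sets they were 0.043 for Esrrg, 0.051 for Srsf10, -0.036 for Actb and 0.014 for Tbp. Without both arrays that stand apart Xist was 0.114. Leaving out 1 array gave -1.706 to 0.114 for Xist, -0.004 to 0.246 for Actb and -0.095 to 0.008 for Tbp.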
